A study of Drosophila melanogaster with 2 samples.

Results

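The genes described here encode the translation initiation and elongation factors of Drosophila melanogaster, and the question is where the transcription factor Adf1 was found at their transcription start sites (TSSs). They are every protein-coding gene whose symbol starts with eIF or eEF. This gave 52 of 13968 protein-coding genes, of which 44 are eIF genes and 8 are eEF genes. Binding was measured by chromatin immunoprecipitation and sequencing (ChIP-seq) in whole embryos collected from 0 to 24 h of development. The embryos came from a transgenic strain that carries Adf1 fused to the green fluorescent protein eGFP, and the tag was precipitated with an anti-GFP antibody. All samples form 1 group of 2 biological replicates with 1 library each, both with the same strain, age and tag, and no control sample was analysed here, so nothing was compared between conditions. The labels give neither the promoter of the fusion gene nor whether the untagged Adf1 gene was still present. Whole embryos mix all tissues and stages, and a peak does not say in which cells Adf1 was bound.

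Translation begins when the small ribosomal subunit, carrying the initiator tRNA, is loaded on the capped end of an mRNA and scans to a start codon. The eIF factors load the subunit, pick the start codon and join the large subunit, and the eEF factors then bring aminoacyl-tRNAs and move the ribosome along. Adf1 recognises DNA through a MADF domain and was first known as an activator of Adh. The DNA replication-related element (DRE), the palindrome TATCGATA, is the site of the factor DREF and occurs in promoters of many growth and housekeeping genes of the fly.

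The sequences under 8 of the summits are shown first, because the results on motifs turn on them. They were read from the RefSeq copy of the Release 6 genome (dm6), 5′ to 3′ on the strand of the gene. Each is the window of 50 bp to either side of a summit, the position of the highest signal in a peak, and bases in annotated exons are left out. In the first 4 the capitals mark the DRE. The window of eEF1gamma was chr3R:29220085-29220171 (plus strand), that of eIF2gamma chr3R:15263459-15263532 (minus strand), that of eIF3a chr3R:4433912-4433964 (minus strand) and that of eIF3f1 chr3R:4714183-4714236 (minus strand).
eEF1gamma: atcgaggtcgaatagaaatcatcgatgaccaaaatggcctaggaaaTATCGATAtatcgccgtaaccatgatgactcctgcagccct
eIF2gamma: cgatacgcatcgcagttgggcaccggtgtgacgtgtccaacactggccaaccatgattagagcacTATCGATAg
eIF3a: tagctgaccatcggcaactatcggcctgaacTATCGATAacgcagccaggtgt
eIF3f1: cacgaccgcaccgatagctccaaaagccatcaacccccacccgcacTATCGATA

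The next set of windows holds a repeat of GCN triplets, the kind of sequence known from Adf1 binding sites. The capitals mark all matches to GCNGCNGCN on either strand, joined where they overlap. The window of eIF2alpha was chrX:16447022-16447122 (minus strand), that of eIF4G2 chr3R:23819261-23819361 (minus strand) and that of eIF4H1 chrX:16448965-16449065 (plus strand). The last window, of eIF4EHP at chr3R:24109143-24109243 (minus strand), has no match to either motif and is shown because its strong peak is missing from the thresholded lists described below.
eIF2alpha: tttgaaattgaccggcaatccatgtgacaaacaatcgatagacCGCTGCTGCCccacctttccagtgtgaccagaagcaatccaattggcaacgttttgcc
eIF4G2: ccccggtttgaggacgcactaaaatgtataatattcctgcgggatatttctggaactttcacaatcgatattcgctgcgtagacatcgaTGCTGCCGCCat
eIF4H1: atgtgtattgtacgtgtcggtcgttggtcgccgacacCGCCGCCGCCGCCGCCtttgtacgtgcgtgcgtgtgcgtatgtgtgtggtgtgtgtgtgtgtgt
eIF4EHP: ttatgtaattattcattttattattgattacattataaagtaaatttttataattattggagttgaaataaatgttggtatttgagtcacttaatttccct

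Of the 52 translation factor genes, 15 had an Adf1 summit within 500 bp of a TSS in the conservative list, and these are called bound. That is 28.8% (95% Wilson interval 18.3 to 42.3%), beside 18.9% of all protein-coding genes, which lies inside the interval. The bound genes were 11 of the 44 initiation factor genes and 4 of the 8 elongation factor genes. They are eIF1, eIF2alpha, eIF2gamma, eIF3a, eIF3f1, eIF3h, eIF4G2, eIF4H1, eIF2D, eIF5B and eIF6, with eEF1alpha1, eEF1gamma, eEF2 and eEF5. The conservative list holds 4370 summits called across both replicates. Intervals here cover counting error only, and genes are not biological replicates.

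The other lists gave nearly the same picture, with a somewhat larger gap in replicate 1. In the optimal list, a longer list over both replicates, 16 members were bound (30.8%, interval 19.9 to 44.3%), beside 23.2% of all genes. In replicate 1's own list 14 were bound (26.9%, interval 16.8 to 40.3%), beside 14.3% of all genes. In replicate 2's own list 16 were bound (30.8%), again beside 23.2% of all genes. Among these 4 lists, the share of all genes lay below the interval of the members in replicate 1's own list alone. The ranked lists, which also hold the peaks below the authors' threshold, had a summit at 33 members in replicate 1 (63.5%, interval 49.9 to 75.2%, all genes 47.3%) and at 39 in replicate 2 (75.0%, interval 61.8 to 84.8%, all genes 64.1%).

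**Figure D1:**
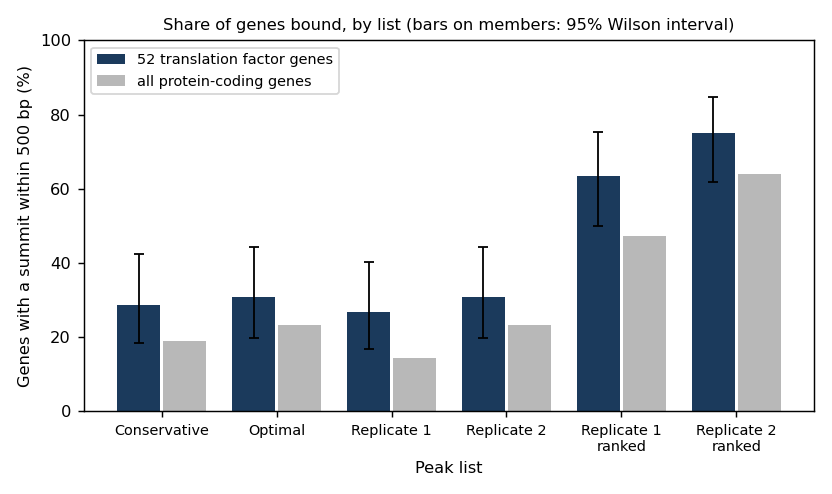
Percent of genes with a summit within 500 bp of a TSS in each peak list, for the 52 translation factor genes (dark bars, with 95% Wilson intervals) and for all protein-coding genes (grey bars). The dark bar is the higher in all 6 lists, 28.8% against 18.9% in the conservative list, and the 95% interval of the members reaches down to the grey bar or past it in the conservative, optimal, replicate 2 and replicate 2 ranked lists.

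Across the 4 thresholded lists, 13 members were bound in every list, 18 in at least 1 and 34 in none. The share of all genes bound in every list is not given here. The 18 are 34.6% of the members, beside 26.8% of all genes bound in at least 1 of these lists. Of the 15 members in the conservative list, 13 (86.7%) were also in both replicates' own lists, beside 1743 (66.1%) of the 2636 genes bound in that list. The exceptions were eEF5, absent from replicate 1's own list, and eIF2D, absent from both own lists. eIF2D was absent from the optimal list too, so the conservative list alone held it. The other lists added eIF2beta, eIF3c and eIF4E1.

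**Figure D2:**
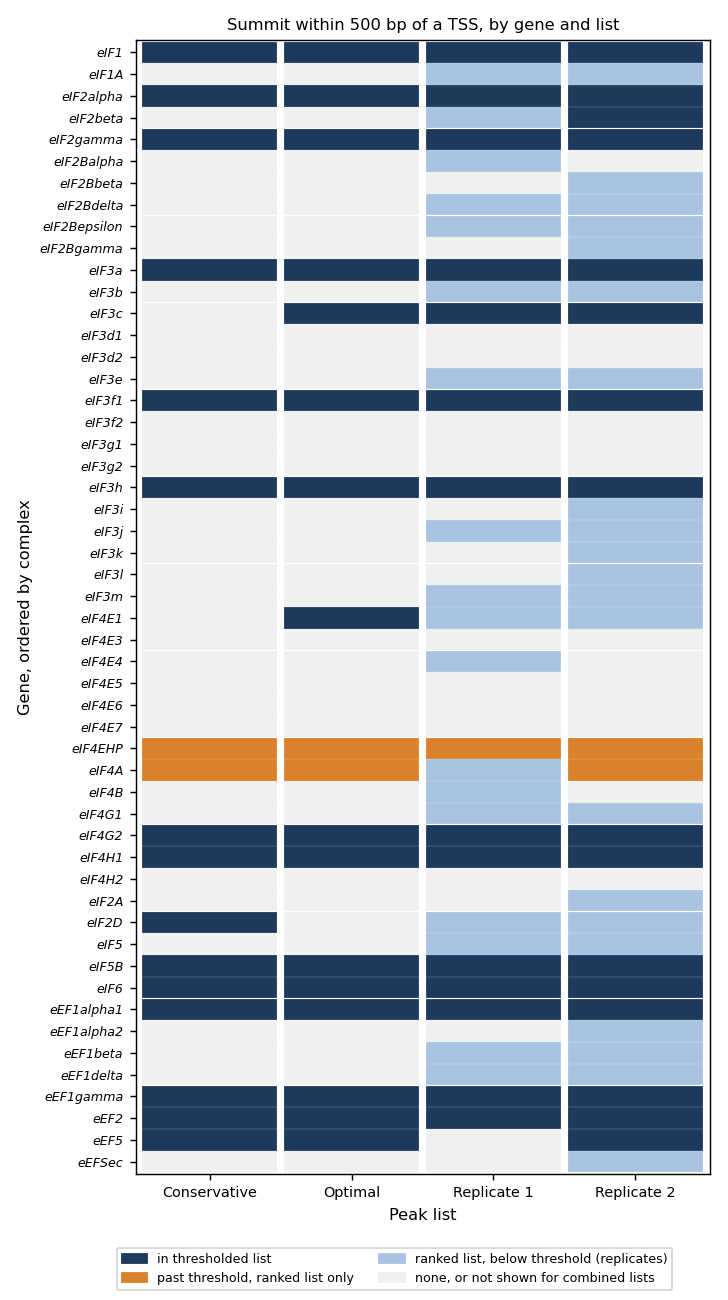
Status of each of the 52 genes (rows, ordered by complex) in the 4 thresholded peak lists (columns). Dark cells are summits in the thresholded list, orange cells are summits past the threshold found in the ranked list only, and pale blue cells are summits below the threshold. Rows of 4 dark cells mark the 13 members bound in every list, and the eIF2B rows hold no dark cell.

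The scanning factors come first in the pathway. eIF1, which keeps the scanning subunit open until the start codon is found, was bound, and its partner eIF1A was not. The eIF1 (FBgn0035423) summit lay on 3L at 3222986, 355 bp upstream of its TSS, with a signal of 145 in the conservative list. Signal is the authors' value for each peak, in units the sources do not give, and it ranks peaks only within a list. In the replicates' own lists the eIF1 summits had signals of 73.2 at 285 bp upstream and 91.9 at 352 bp upstream. The nearest TSS was not that of eIF1 but of RpL28, a gene for a protein of the large ribosomal subunit, 26 bp from the conservative summit. eIF1A had summits below the threshold in both replicates, with signals of 19.1 in replicate 1, where the TSS of Vps39 was slightly nearer, and 41.9 in replicate 2.

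eIF2 carries the initiator tRNA to the ribosome as a complex of 3 subunits, and eIF2B, of 5 subunits, reloads it with GTP. Of the eIF2 genes 2 of 3 were bound in the conservative list, and in replicate 2's own list all 3, beside 18.9% and 23.2% of all genes. None of the 5 eIF2B genes was bound in any thresholded list, which for 0 of 5 allows a share of up to 43.4% (Wilson interval). With 2 to 16 genes in a group these intervals are wide, from 20.8 to 93.9% for the eIF2 genes.

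The eIF2alpha (FBgn0261609) summit lay on X at 16447072, 79 bp upstream of the TSS. It had a signal of 109 in the conservative list, 55.6 in replicate 1 and 60.4 in replicate 2, and placed above 27.7% of the conservative peaks. The eIF2gamma (FBgn0263740) summit, on 3R at 15263482, was 24 bp upstream of a TSS it shares with Su(var)3-9, the histone H3 lysine methyltransferase gene of position-effect variegation, with Set also within 500 bp. Its signal was 104 in the conservative list, 56.2 in replicate 1 and 48.5 in replicate 2. It placed above 23.6% of the conservative peaks, so both eIF2 peaks ranked in the weaker part of the list, and both were called in each replicate. eIF2beta had a summit in replicate 2's own list only, 20 bp downstream of its TSS, above 17.1% of that list's peaks and with a score of 841, close to 830, the lowest score in the list. Replicate 1 had a summit at eIF2beta below the threshold, with a signal of 22.4.

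Among the eIF2B genes, eIF2Bdelta had summits below the threshold in both replicates, with signals of 28.4 and 34.7, and the TSS of roh was nearer to both, at 28 and 3 bp. eIF2Bepsilon, the catalytic subunit, had its strongest such summits 96 bp upstream in replicate 1, with a signal of 23.4, and 446 bp upstream in replicate 2, with a signal of 43.7. Replicate 1 had a weaker summit 375 bp upstream, with a signal of 10.1, and the TSS of Ocrl was the nearest to all of these. eIF2Balpha, eIF2Bbeta and eIF2Bgamma had a ranked summit in 1 replicate each. The nearest conservative summit to eIF2Bbeta was 689 bp from its TSS, just outside the limit of 500 bp and the nearest among the unbound members. Among bound members, the strongest summit nearest to the limit was that of eIF1 at 355 bp.

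The eIF3 complex is the scaffold of initiation on the small subunit and has the most genes. Of its 16 genes, counting paralogues such as eIF3f2, 3 were bound in the conservative list (18.8%, interval 6.59 to 43.0%), beside 18.9% of all genes. In each of the other thresholded lists 4 were bound (25.0%, interval 10.2 to 49.5%). The share of all genes was 23.2% in the optimal list, 14.3% in replicate 1's and 23.2% in replicate 2's. eIF3f1 (FBgn0037270) had its summit on 3R at 4714186, 4 bp upstream of the TSS, with signals of 148 in the conservative list, 51.1 in replicate 1 and 96.0 in replicate 2. The replicates' own eIF3f1 summits were 9 and 13 bp upstream, 4 bp apart, the closest pair among the 13 members in the conservative and both own lists. eIF3a (FBgn0037249), the gene of the largest subunit, had its summit on 3R at 4433962, with signals of 130, 61.4 and 75.2 in the same order. That summit was 67 bp upstream of eIF3a and 3 bp from the TSS of CG1074, so the neighbour's TSS was the nearer.

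eIF3h (FBgn0022023) differed in placement. Its summit on 2L at 5052660 lay 120 bp downstream of the TSS, in coding sequence, with the TSS of senju also within 500 bp. Its signals were 155 in the conservative list, 56.6 in replicate 1 and 105 in replicate 2, and the replicates' summits, 236 and 127 bp downstream, were the farthest apart among those 13 members. eIF3c was in every thresholded list but the conservative one. Its signals were 111 at 10 bp upstream in the optimal list, 66.1 at 63 bp upstream in replicate 1 and 44.1 at 8 bp upstream in replicate 2, where its score of 843 was near the lowest. Of the rest, eIF3b, eIF3e, eIF3j and eIF3m had summits below the threshold in both replicates, and eIF3i, eIF3k and eIF3l in replicate 2 only. eIF3d1, eIF3d2, eIF3f2, eIF3g1 and eIF3g2 had none in either ranked list.

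The eIF4 factors bind the cap and unwind the mRNA. None of the 7 genes of the cap-binding eIF4E family was bound in the conservative list (interval 0 to 35.4%), beside 18.9% of all genes. The main cap-binding protein gene, eIF4E1, was bound only in the optimal list, with a signal of 92.9 at 4 bp upstream. Both replicates had a summit below the threshold at that position, with signals of 48.0 in replicate 1 and 39.5 in replicate 2. Other ranked summits at eIF4E1 had signals of 12.5 in replicate 1 and of 54.1 and 42.6 in replicate 2. eIF4E3, eIF4E5, eIF4E6 and eIF4E7 had no ranked summit in either replicate, and eIF4E4 had a weak summit in replicate 1 only, with a signal of 18.9. Of the 6 genes of eIF4A, eIF4B, eIF4G and eIF4H, 2 were bound in that list (33.3%, interval 9.68 to 70.0%). eIF4B, the other helicase cofactor, had a ranked summit in replicate 1 only, with a signal of 20.9.

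eIF4H1 (FBgn0262734), named for the cofactor of the helicase eIF4A, had the second strongest peak of all members. Its summit on X at 16449015 had a signal of 640 in the conservative list, 264 in replicate 1 and 370 in replicate 2, above 91.1%, 90.0% and 92.2% of the peaks in those lists. The summits lay 137, 146 and 137 bp upstream of the inner TSS of eIF4H1, in the gene's own intron. eIF2alpha lies close by on X and is transcribed in the opposite direction, and each gene had a peak of its own. eIF4G2 (FBgn0260634), a relative of the scaffold eIF4G known from the male germline of the fly, had its summit on 3R at 23819311, with signals of 132, 63.9 and 62.7 in the conservative list, replicate 1 and replicate 2. That summit was 74 bp upstream of a start that eIF4G2 shares with CG33111, inside an intron of CG34355. The main scaffold gene eIF4G1, on chromosome 4, had only weak ranked summits, with signals of 18.4 and 22.4 in the replicates, and eIF4H2 had none.

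Peaks past the threshold score at 2 genes of the cap machinery are left out of the thresholded lists. eIF4EHP, a cap-binding protein that represses translation, had a summit on 3R at 24109193, 233 bp upstream of its TSS, with a signal of 550 and a score of 1000, the highest possible, in the ranked list behind the conservative one. The TSS of CG18428 was nearer to that summit, at 143 bp. The signal was 243 in replicate 1's ranked list and 303 in replicate 2's, at 230 and 231 bp upstream and with a score of 1000 in each. The helicase gene eIF4A had a summit on 2L at 5982483, 111 bp upstream, with a signal of 168 and a score of 1000. That signal was above 56.4% of the conservative peaks, and the signal of 550 at eIF4EHP above 88.8%. In replicate 2 eIF4A had a signal of 105 at 71 bp upstream. In replicate 1 its peak, with a signal of 50.1 at 39 bp downstream of another TSS of eIF4A, was below the threshold. The conservative list omits 161 such peaks with a score of 830 or more, and 63 genes had such a summit within 500 bp, 2 of them members. The deposited file lists name a further input to the thresholded lists whose role is not stated, and its part in these omissions was not tested.

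The remaining initiation genes act in tRNA delivery, subunit joining and its control. In the conservative list 3 of these 5 were bound (interval 23.1 to 88.2%), beside 18.9% of all genes. eIF6 (FBgn0034915), which keeps the large subunit from joining too early, had the strongest peak of all members. Its summit on 2R at 23850394, 93 bp upstream of the TSS and in an intron of ytr, had a signal of 749 in the conservative list, 350 in replicate 1 and 407 in replicate 2, above 92.9%, 93.7% and 93.3% of the peaks. eIF5B (FBgn0026259), the GTPase of subunit joining, had signals of 142, 58.8 and 87.8 at its summit on 3L at 3460709, 106 bp upstream of the nearer of its TSSs and in the 5′ UTR of its longer transcript. eIF2D (FBgn0041588), which can place tRNA on the ribosome without eIF2, had the weakest peak, with a signal of 80.4 and a score of 847 on 3R at 29151857, 63 bp upstream. In the replicates eIF2D had only ranked summits, with signals of 33.9 and 48.0 and scores of 221 and 617. eIF5, the GTPase-activating protein of eIF2, had summits below the threshold in both replicates, and eIF2A in replicate 2 only.

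Among the elongation factors, eEF1alpha brings aminoacyl-tRNA to the ribosome and the other eEF1 subunits recharge it. eEF1gamma (FBgn0029176) had the strongest peak of the bound eEF genes, with its summit on 3R at 29220135, 37 bp upstream. Its signals were 244 in the conservative list, 99.3 in replicate 1 and 149 in replicate 2. eEF1alpha1 (FBgn0284245), the general form, had 2 conservative summits on 2R, at 11892061 with a signal of 165 and at 11892268 with a signal of 92.9, 61 bp upstream and 146 bp downstream of an inner TSS. The first was in both replicates' own lists, with signals of 60.5 and 111. Replicate 2 had further summits at this gene, with signals of 55.9 and 61.6, and the former lay 15 bp from the TSS of ERp60. The paralogue eEF1alpha2 had only a weak ranked summit in replicate 2, with a signal of 10.3, and eEF1beta and eEF1delta had summits below the threshold in both replicates.

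eEF2 (FBgn0000559), the translocase, had its summit on 2L at 21682138 in the 5′ UTR, 22 bp upstream of the nearer of its TSSs, with signals of 126, 61.7 and 78.6 in the conservative list, replicate 1 and replicate 2. The replicates' own summits were 105 bp apart, at 21682173 in replicate 1 and 21682068 in replicate 2, each closest to a different TSS of eEF2. eEF5 (FBgn0285952), the hypusine-modified factor formerly called eIF5A, had its summit on 2R at 24057854, 1 bp downstream of a TSS, with a signal of 89.5 in the conservative list and 60.2 in replicate 2. Replicate 1 had no summit near eEF5 even in its ranked list. eEFSec, the factor for selenocysteine, had a ranked summit in replicate 2 alone.

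In all, 13 members had a ranked summit in both replicates but were in no thresholded list, 11 had one in a single replicate and 10 had none. A ranked summit in both replicates was found at 30 members (57.7%) and at 5962 of all genes (42.7%). No ranked summit in either replicate was found for 10 members (19.2%) and 4373 of all genes (31.3%). Of those 10 members, 4 were in the eIF4E family, eIF4H2 was another, and 5 were in the eIF3 group, where eIF3d2, eIF3f2 and eIF3g2 are paralogues of another listed gene. Distance to the nearest conservative summit ranged among unbound members from 689 bp at eIF2Bbeta to 4909602 bp at eIF4B.

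Bound translation factor genes had their summits close to the TSS. Taking the strongest conservative summit of each, the median distance was 67 bp at the 15 members and 112 bp over all 2636 bound genes. It was within 100 bp at 11 members (73.3%), beside 44.7% of bound genes. It was upstream of the nearest of the gene's TSSs at 13 (86.7%), beside 78.6%. Among these 13, the summits at eEF1alpha1, eEF2, eIF4H1 and eIF5B lay inside the gene, in its own intron or 5′ UTR. The member's own TSS was the nearest, or tied, at 13 (86.7%), beside 79.9%, the exceptions being eIF1 and eIF3a. At 10 members (66.7%) no other gene had a TSS within 500 bp, beside 57.0%. The differences were not tested.

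**Figure D3:**
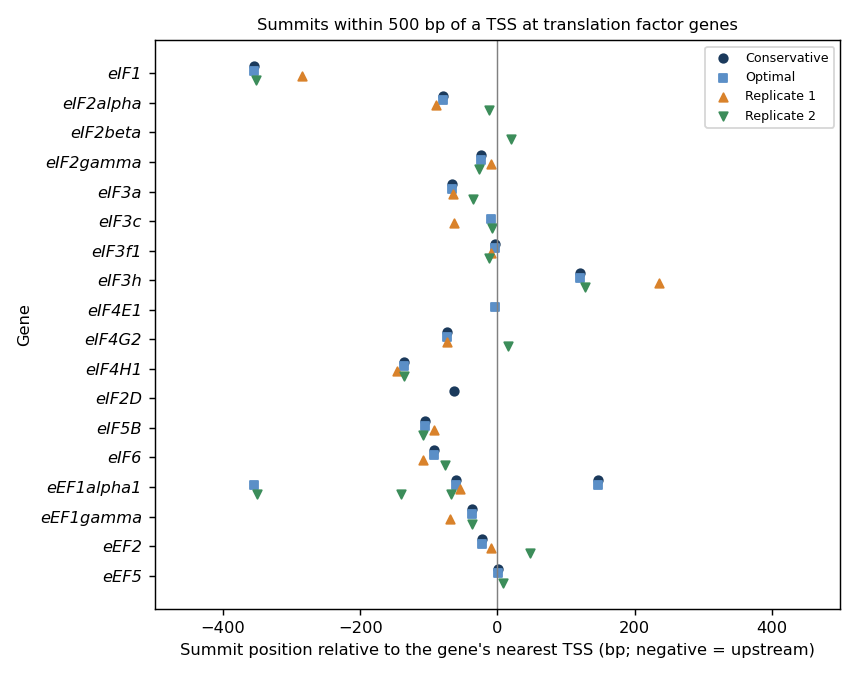
Position of each thresholded summit relative to the nearest TSS of the gene (horizontal axis, bp, negative is upstream) for the 18 members bound in at least 1 list, with a symbol for each list. The strongest conservative summit is upstream of the nearest TSS of the gene at 13 of 15 genes, some of them inside the gene. eIF1 sits 285 to 355 bp upstream and eIF3h 120 to 236 bp downstream.

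The peaks at members were close to the list's middle in strength. Their median signal was 142, beside 153 over all bound genes, with a range of 80.4 to 749, and 5 of 15 (33.3%) were at or above the list median of 150.6, beside 51.4% of bound genes. Those 5 were eEF1alpha1, eEF1gamma, eIF3h, eIF4H1 and eIF6. Between the replicates' own lists, the strongest summits were compared at the 13 members in the conservative and both own lists. They were a median of 32.0 bp apart, from 4 bp at eIF3f1 to 109 bp at eIF3h. At 8 of the 13 they were within 50 bp of each other. eIF3c, in both own lists but not in the conservative one, is not among the 13. eIF6 and eIF4H1 ranked highest in both replicates. The order of the others differed more: eIF3f1 was above 21.5% of replicate 1's peaks and 61.5% of replicate 2's, and eIF2gamma above 29.3% and 15.1%. The lists hold 3126 and 6003 summits, so these ranks are set side by side and show no change.

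**Figure D4:**
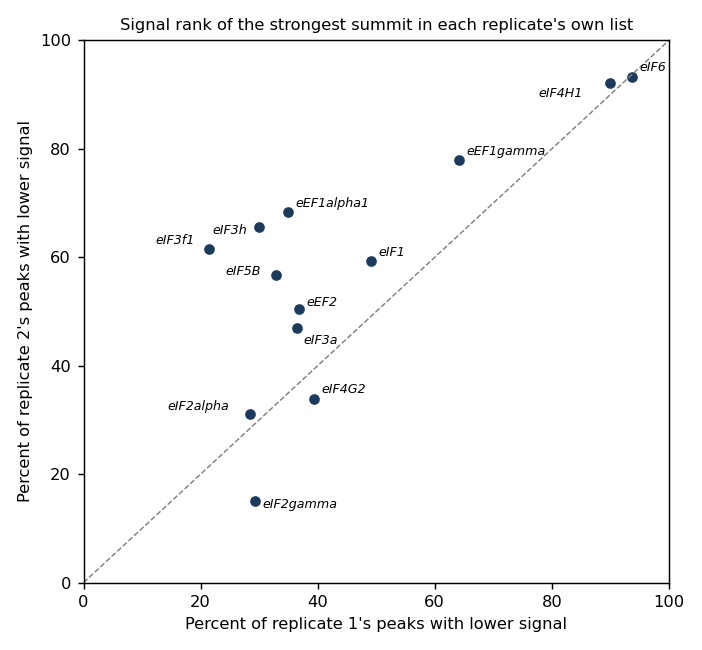
Percent of peaks with a lower signal than the strongest summit of each gene, in replicate 1's own list (horizontal axis) and replicate 2's (vertical axis), for the 13 members in the conservative and both own lists; the dashed line marks equal percentiles. eIF6 and eIF4H1 sit at the top right, at 90.0% or more in both, and the others lie between 15.1% and 77.9%.

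The DRE was seen more often under the summits at translation factor genes than under other summits. In the 16 windows of 50 bp to either side of the conservative summits of members, which count both summits of eEF1alpha1, TATCGATA occurred in 4 (25.0%), beside 65 of the 2544 windows at all summits within 500 bp of a TSS (2.56%), which include these, and 3 of 1826 at summits farther away (0.164%). The letters read the same on both strands. The 4 genes were eEF1gamma, eIF2gamma, eIF3a and eIF3f1, whose windows are printed above. At eEF1gamma and eIF3f1 the DRE was centred on the summit to within 1 base, at eIF2gamma 18.5 bp and at eIF3a 32.5 bp downstream of it. Relative to the TSS, with upstream negative, the DRE was centred at -37.5 bp at eEF1gamma, -34.5 bp at eIF3a, -5.5 bp at eIF2gamma and -4.5 bp at eIF3f1.

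The DRE was also common in the promoters of members that were not bound. In promoters, taken as 250 bp before to 50 bp after each TSS, it occurred at 6 of 15 bound members (40.0%) and at 9 of 37 unbound members (24.3%). Among all genes it occurred at 14.3% of the bound and 9.20% of the unbound, and in 7.98% of the promoters of all 19276 distinct TSSs. The bound members with a DRE in a promoter were eEF1gamma, eIF2alpha, eIF2gamma, eIF3a, eIF3f1 and eIF6. A match describes the letters and does not show that a factor was bound there. No test was run on these shares.

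The GCN triplet repeat was present at a share nearer to that of other summits. GCNGCNGCN, searched on both strands, occurred in 4 of 16 member windows (25.0%), at eEF2, eIF2alpha, eIF4G2 and eIF4H1, beside 15.9% of windows near a TSS and 16.2% of windows farther away. At eIF4H1 it formed an unbroken run of triplets that covers the summit of the second strongest member peak. By promoter it occurred at 5 of 15 bound members (33.3%) and 5 of 37 unbound ones (13.5%), beside 27.8% of all bound and 9.93% of all unbound genes, and in 11.2% of all promoters. No member window held both the DRE and the longer repeat. The short form GCNGCN, which every longer match also contains, was in 10 of 16 windows (62.5%), beside 51.4% near a TSS and 63.4% of all promoters. Promoters are longer than the windows, so the 63.4% is not directly comparable with the window shares.

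GAGAG and CACGTG were absent from member windows, and TATAAA was at about the share of all windows near a TSS. GAGAG, the GAGA element, was in none of 16 windows, beside 19.3% of windows near a TSS and 33.2% of promoters. By promoter it occurred at 26.7% of bound members and 50.9% of all bound genes. CACGTG, the E box known as the site of Myc, was in none, beside 1.30% and 4.04%. TATAAA, the TATA box, was in 2 windows (12.5%), at eEF1alpha1 and eIF6, beside 12.6% of windows near a TSS and 42.3% of promoters. The promoters, 250 bp before to 50 bp after each TSS, are longer than the windows of 50 bp to either side of a summit. A longer sequence can hold more matches by length alone, so promoter shares and window shares are not directly comparable. The TCT initiator, a start element typical of genes for ribosomal proteins and translation factors, was taken as CTTT with T or C before it and C or T after it, on the sense strand and beginning within 5 bp of a TSS. It was found at 6 of 52 members (11.5%), beside 2.20% of all genes and 4.02% of bound genes. Of these 6 genes, eEF2, eEF5 and eIF3f1 were bound and eIF3i, eIF3m and eIF4A were not.

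**Figure D5:**
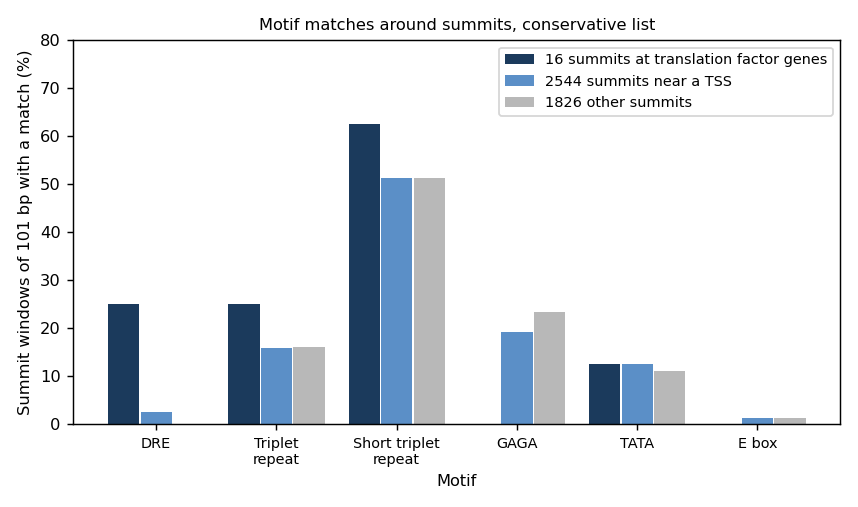
Percent of summit windows (50 bp to either side) with at least 1 match to each motif, on either strand, for the 16 conservative summits at members (dark), the 2544 summits within 500 bp of a TSS (blue) and the 1826 other summits (grey). The DRE bar of the members stands at 25.0% against 2.56% and 0.164%, while the triplet repeat and TATA bars lie closer to the other summits.

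Other genes of the translation pathway, listed by symbol, were bound at a share close to that of the factors themselves. Of 70 listed genes 21 were bound in the conservative list (30.0%, interval 20.5 to 41.5%), beside 18.9% of all genes. Termination and recycling factors were bound at 3 of 7 genes, listed regulators at 8 of 21, and aminoacyl-tRNA synthetases at 10 of 35. The regulators include Nelf-A, a transcription factor subunit listed by mistake, without which 7 of 20 were bound. None of 5 mitochondrial factors and neither of the 2 hypusine enzymes that modify eEF5 was bound. The 6 strongest peaks were at mxt, a gene for an eIF4E-binding protein, with a signal of 779, larp, a La-related RNA-binding protein, at 374, GluProRS at 339, raptor, of the TORC1 growth kinase complex, at 326, ArgRS-m at 315 and pAbp, the poly(A)-binding protein, at 284. The summits at raptor and pAbp lay 472 and 477 bp downstream of a TSS, near the limit of 500 bp. Those at mxt, larp, GluProRS and ArgRS-m lay 162, 103, 130 and 334 bp upstream. Whether the TSS of another gene was nearer is not given for these peaks. The DRE occurred in 0 of the 27 windows at the 21 bound genes of this list, and the triplet repeat in 2 of 27 (7.41%).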

How the data were processed

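Adf1-eGFP ChIP-seq of sonicated chromatin (fragments of 200 to 800 bp, per the labels) was deposited as peak lists on dm6: a thresholded and a ranked list for each replicate, and conservative and optimal lists with their ranked lists for both together. For the aligner and the peak caller, names and versions were not given in the sources used here. The score is a scaled reproducibility score from 0 to 1000 made by the authors, per the deposited file types. The signal was likewise deposited by the authors, in units the sources do not give. Summits are the peak start plus the offset that the authors deposited. Read counts were not used, so the depth of each replicate is unknown, and precision is described by counting intervals alone.

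A summit was assigned to every protein-coding gene (Ensembl release 115, assembly BDGP6.54) that had a TSS within 500 bp, on 7 chromosome arms. A TSS was the 5′ end of any annotated transcript. All members bound in the conservative list, or in another thresholded list only, or ranked in both replicates only, are named, with the 6 strongest of the other translation genes. That list was written by symbol, of which 70 matched the annotation, 2 by synonym, and 6 did not. The members and lists were chosen with earlier results of these data known. Intervals are 95% Wilson intervals. Alternatives were the optimal list, each replicate's own list, distances of 200 and 1000 bp, nearest-gene assignment, the stronger part of the list by signal, the outermost start as TSS, and omitted peaks added back. The search for summits was checked on simulated summits planted within 500 bp of a TSS, where 200 of 200 planted genes among 13968 were recovered. The same limit was used for planting and searching. The check therefore cannot tell whether a summit belongs to a gene or to its neighbour. Scripts ran under Python 3.11.15 with SciPy 1.17.1 for intervals, NumPy 2.4.6, and Matplotlib 3.10.9 for plots.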

Additional observations from a re-analysis of the deposited data

How the results depend on the processing

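Of 44 recomputed counts, 39 stayed within 1.5 times the reported count. The 5 others all came from keeping only the conservative summits at or above the list's median signal, which removes summits by construction. It left 5 bound members (of 15), 3 initiation genes (of 11), 2 elongation genes (of 4), 1 eIF3 gene (of 3) and 5 members whose own TSS was nearest (of 13). Those 5 bound genes among the 52 members are a share close to the 9.71% of all genes then bound. The higher share of members was thus not seen at this setting. Under the other settings the number of bound members ranged from 13 to 17. The 13 came with nearest-gene assignment, beside 15.3% of all genes, and the 17 with omitted peaks added back, beside 19.3%. The number was 14 at 200 bp (15.2% of all genes) and with the outermost start (16.1%), and 16 at 1000 bp (21.4%). With a single replicate's own list it was 14 or 16, initiation genes 11 or 12, elongation genes 3 or 4, eIF3 genes 4, and members with their own TSS nearest 12 or 15. The optimal list lost eIF2D and added eIF3c and eIF4E1. Nearest-gene assignment lost eIF1 and eIF3a, 200 bp lost eIF1, the outermost start lost eEF1alpha1, 1000 bp added eIF2Bbeta, and omitted peaks added eIF4A and eIF4EHP. No paired analysis was possible because there is only 1 group. Without Nelf-A among the other translation genes, a change made after seeing the data, 20 of 69 genes (29.0%) were bound. Peak lists without read counts set the limit: a member absent from a list may have been bound below what the unknown depth could show.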

Other observations

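The shorter core ATCGAT, chosen after the sequences had been seen and therefore a description only, was in 7 of 16 member windows (43.8%), beside 6.92% of windows near a TSS and 2.03% of windows farther away. It added eEF2, eIF2alpha and eIF4G2 to the genes with the full DRE, and these are 3 of the 4 members whose windows held the triplet repeat. In promoters it was found at 11 of 15 bound members (73.3%) and 15 of 37 unbound ones (40.5%), beside 33.0% of all bound genes and 26.3% of all genes.

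Thor, the gene of the eIF4E-binding protein that blocks cap-dependent initiation, had a conservative summit 28 bp upstream of its TSS with a signal of 136, close to the median of 142 at the members. The termination and recycling genes pelo, HBS1 and eRF3 had weaker peaks, with signals of 99.7, 99.5 and 90.6. These genes were picked for mention after their values were seen.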
